A study of Drosophila melanogaster with 4 samples.

Results

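The euchromatic X chromosome of Drosophila melanogaster larvae held 1547 of the 9877 regions enriched for H3K9acS10P in the combined list of 2 ChIP-seq replicates, which is 15.7% of them. These regions, called clusters here, were taken as all enriched regions whose midpoint lies on the X between position 1 and position 20422827 of FlyBase release 5, so the 2 Mb of the X nearest the centromere are left out. The replicate lists, called per sample, held 977 of 6080 (replicate 1) and 1184 of 7282 (replicate 2) clusters in the same stretch. The position rule used no measured value. The last cluster inside the limit ran from 20392670 to 20396846 (4.18 kb, score 1.20) and the first one beyond it from 20527422 to 20530634 (3.21 kb, score 0.65). A further 74 combined clusters lay beyond the limit, where 9.97% of the sequence was inside clusters.

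H3K9acS10P is histone H3 that carries an acetyl group on lysine 9 and a phosphate on the serine next to it. Outside mitosis the serine is phosphorylated in flies by the kinase JIL-1, which is found along euchromatin of all chromosomes and is known to be more abundant on the X of males, where the MSL dosage compensation complex binds active genes and acetylates histone H4. Lysine 9 acetylation is known as a mark of the start of active genes. The combined modification joins both features in 1 epitope.

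Nuclei came from wild-type larvae in the third instar, of the Oregon-R-modENCODE line of Oregon-R. The study has 4 samples, of which 2 are ChIP samples and 2 are inputs that serve as the background of the ChIP samples. All samples share strain, genotype and stage, so the design has no treated and control groups, and the comparisons here are between chromosome arms within a list. Flies were kept in population cages and larvae were collected from bottles, the labels name no sex, and larvae hold many cell types. A stronger cluster can therefore come from more cells with the mark or from more of it per cell, and these cannot be told apart. Whether separate cultures were used for the replicates is not stated, so the spread between them may be technical.

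The lists give no read totals, so library depth is unknown here and no interval from counts of reads can be given. The X was set against 3 autosomal arms, 2L, 3L and 3R, each without the 2 Mb next to its centromere (20.4 Mb of the X, 21.0 Mb of 2L, 22.5 Mb of 3L and 25.9 Mb of 3R). There is 1 X and there are 2 replicate lists, so every difference between the X and another arm is given as its values in each list, without a test. No gene positions on release 5 were used here, so regions are given by coordinates alone.

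Clusters were packed more closely on the X than on the 3 autosomal arms. The median gap from the end of a cluster to the start of the next was 1960 bp on the X in the combined list, against 2585 bp on 3R, 2867 bp on 3L and 2975 bp on 2L. Gaps of at most 2 kb made up 781 of 1546 on the X (50.5%), against 41.1% of gaps over all sequences and 40.4% to 43.7% on the 3 arms. Each replicate list showed the same order between the X and every arm. In replicate 1 the median gap on the X (4671.5 bp) was hardly below that of 2L (4723.5 bp), with up to 5504 bp on the arms. In replicate 2 it was 3086 bp on the X and 3750 to 4018 bp on the arms. Gaps of at most 2 kb in replicate 1 were 32.0% on the X and 27.9% to 28.6% on the arms, with 28.2% over all sequences. In replicate 2 they were 39.6% on the X and 33.2% to 36.0% on the arms, with 33.5% over all sequences. The mean over the replicates was 35.8% ± 5.37 (SD, n = 2) on the X and 31.9% ± 5.73 on 3R, so the distance between those arms was smaller than the spread between replicates, while within each replicate the X was higher.

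The closer packing did not come with more clusters per length in every comparison. The X held 75.7 combined clusters per Mb, above 2L (68.6) and 3R (71.6) and below 3L (79.9). Replicate 1 gave 47.8 per Mb on the X, within the range of the 3 arms (46.6 to 52.3), and replicate 2 gave 58.0, just above their range (50.8 to 57.5). Long gaps took up a like share of the X in the combined list. Gaps of at least 50 kb made up 37.2% of the length of the X in the combined list, against 31.5% on 3L, 37.9% on 3R and 39.1% on 2L. In replicate 1 this share was 51.3% on the X and 42.4% to 49.7% on the arms, and in replicate 2 it was 45.3% and 40.1% to 49.6%. The median gap was 19.6% of the mean gap on the X and 23.6% to 29.8% on the arms. This measure of unevenness did not separate the X in replicate 1, where it was 26.4% on the X and 25.5% on 2L.

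**Figure D1:**
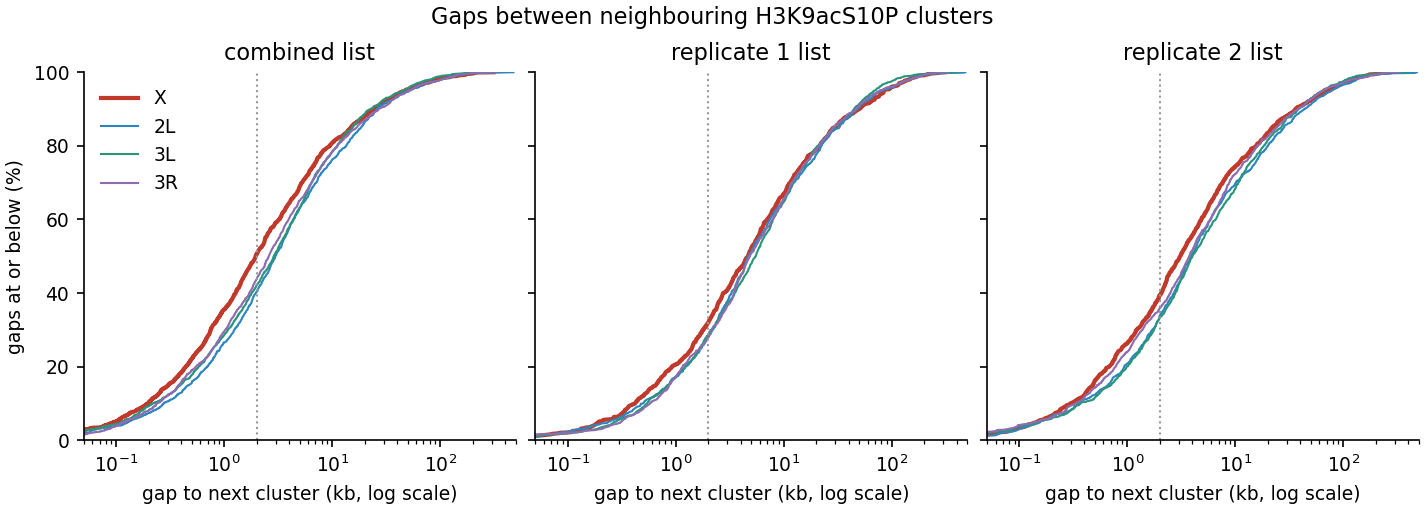
Cumulative share of gaps (y axis, percent) at or below a given length (x axis, kb, log scale) on the X and on 2L, 3L and 3R in each deposited list; the dotted line marks 2 kb. At 2 kb the X curve stands at 50.5% in the combined list, 32.0% in replicate 1 and 39.6% in replicate 2, above the 3 other arms in each list, and the curves join at the longest gaps.

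The X held more very wide clusters than the arms, while the place of its median width differed between lists. The median width of an X cluster was 2231 bp in the combined list, inside the range of the 3 arms (2207 to 2355 bp). In the replicate lists it was above every arm, at 2653 bp against 2402 to 2554 bp in replicate 1 and 2490.5 bp against 2298 to 2395 bp in replicate 2. Among combined clusters met by both replicates it was 3881 bp on the X and 3199 to 3337 bp on the arms. That filter selects on width, and between 1.5 and 2.5 kb fewer clusters passed it on the X (36.1%) than on the arms (43.3% to 47.4%). Its values are therefore no separate support for wider X clusters. The 90th percentile in the combined list was 6127 bp on the X and 5111 to 5507 bp on the arms. Clusters of at least 10 kb numbered 53 on the X, 3.43% of its clusters, against 1.79% over all sequences and 1.28% to 2.01% on the 3 arms. They held 15.0% of the covered length of the X, against 6.33% to 9.29% on the arms. Replicate 1 had 16 such clusters on the X (1.64%, against 0.888% over all sequences and at most 1.12% on the arms). Replicate 2 had 30 (2.53%, against 1.26% over all sequences and at most 1.59% on the arms). The X also had the largest share of clusters under 1.5 kb in the combined list, at 28.0% against 21.8% to 26.5%. In the replicate lists, where the shortest X clusters were 1301 and 1302 bp, this share was within or close to the range of the arms, at 8.70% against 7.21% to 9.42% in replicate 1 and 13.5% against 13.4% to 13.9% in replicate 2.

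Of the 10 widest X clusters met by both replicates, 6 lay between 1 and 3 Mb, in the distal part of the chromosome. After the 4 widest, which measured 22.6 to 29.0 kb, came X from 2183578 to 2203664 (20.1 kb, score 0.92), which clusters of replicate 1 filled to 99.3% and those of replicate 2 to 96.7%. X from 5779374 to 5799264 (19.9 kb, score 1.27) was 1 cluster in all 3 lists. X from 9040480 to 9059554 (19.1 kb, score 1.40) was covered at 92.3% and 99.0%, by 2 clusters and 1 cluster. X from 1140150 to 1156534 (16.4 kb, score 0.53) was less evenly supported, at 43.9% and 73.5%, and met 3 clusters in replicate 1 and 5 in replicate 2. Coverage below 90% in a replicate was common among the 10 widest. The 4 widest were covered at 81.8% to 86.5% in replicate 1 and at 78.5% to 100% in replicate 2. X from 1350920 to 1368018 stood at 70.3% and 98.7%, and X from 11460976 to 11477306 at 81.4% and 100%.

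Joining clusters over gaps of at most 2 kb gave runs, and a run that spanned at least 20 kb is called a domain. The X held 63 domains in the combined list, or 3.08 per Mb. Arms 2L, 3L and 3R held 25, 33 and 42, which is 1.19, 1.46 and 1.62 per Mb. Domains held 32.4% of the covered length of the X and 13.5% to 17.7% of that of the arms. Replicate 1 gave 8 domains on the X (0.39 per Mb) and 4, 3 and 6 on 2L, 3L and 3R (0.13 to 0.23 per Mb). Replicate 2 gave 35 on the X (1.71 per Mb) and 18, 10 and 21 on the arms (0.44 to 0.86 per Mb). The density on the X was 2.14 times that of the 3 arms together in the combined list, 2.09 times in replicate 1 and 2.43 times in replicate 2. In the combined list this ratio moved with the definition of a domain, to 1.28 with joining over gaps of up to 5 kb, 1.34 with a smallest span of 10 kb and 3.56 with one of 30 kb. It was 3.51 among the higher-scoring 50% of combined clusters, a cut at 1 score for all sequences. X scores were higher (median 0.46 against 0.39 to 0.42 on the arms), so this cut favours X clusters, and its part in the rise was not tested. The number of domains itself differed more between lists than between arms: on the X the mean over the replicates was 21.5 ± 19.1 (SD, n = 2). The 8 domains of replicate 1 rest on few regions, and the share of X clusters in runs of 3 or more was 21.3% in that list, next to 20.0% to 20.9% on the arms.

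**Figure D2:**
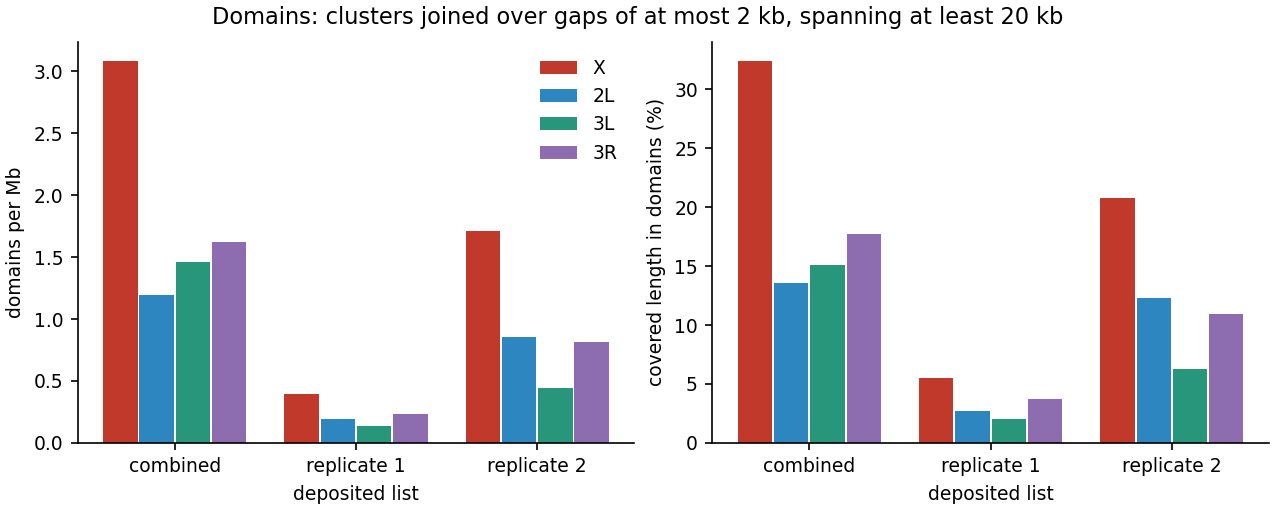
Domains per Mb (left) and percent of the covered length that lies in domains (right) for the X, 2L, 3L and 3R; each bar is 1 arm in 1 deposited list, with no error bar since each is a single value. The X bar is the highest of its group in all 3 lists, at 3.08, 0.39 and 1.71 domains per Mb in the combined, replicate 1 and replicate 2 lists.

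The X had more of its length in domains also among stretches of like coverage. In the combined list, 23 complete 100 kb bins of the X were covered at 40 to 50%, and on average 22.8% of their length lay in domains. The 58 autosomal bins of that class had 12.0% in domains, with a mean coverage of 44.2% against 43.7% on the X. Bins covered at 30 to 40% had 11.8% of their length in domains on the X (30 bins) and 8.42% on the arms (93 bins). At 60 to 70% the order turned, at 30.0% on the X and 40.1% on the arms, with 5 bins on each side. In replicate 2 the class from 40 to 50% gave 18.5% on the X (14 bins) and 12.0% on the arms (28 bins). In replicate 1 the class from 30 to 40% gave 5.47% on the X (21 bins) and 2.78% on the arms (65 bins), but from 20 to 30% it gave 0.60% on the X and 0.90% on the arms.

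The typical X domain was a string of 5 clusters that covered most of its span. X domains had a median span of 26.5 kb, against 24.2 to 25.0 kb on the arms, and 23 of the 63 spanned at least 30 kb, against 4 on 2L, 7 on 3L and 11 on 3R. Clusters filled 89.3% of the span of the X domains. The X stretch from 1 to 2 Mb held 11 domains, more than any other 1 Mb stretch of the X, and 5 more lay in the next 1 Mb. These 2 Mb held 16 of 63 domains in the combined list, 5 of 8 in replicate 1 and 8 of 35 in replicate 2. The stretch from 14 to 15 Mb held none in any list.

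The longest X domain ran from 6146228 to 6201052 (54.8 kb) and was made of 9 clusters. Replicate 1 covered 60.4% of it with 9 clusters and replicate 2 covered 84.5% with 8. The second, from 6861136 to 6909290 (48.2 kb), was made of 3 clusters that filled 97.3% of its span, and it stood alone, 90.1 kb from the cluster before it and 52.1 kb from the one after. Replicate 1 covered 82.9% of it with 6 clusters and replicate 2 covered 77.6% with 8. In the combined list these 2 domains differ in build, a string of separate clusters against a nearly unbroken block. The replicate lists did not show this contrast, since both domains were split into 6 to 9 clusters there. The third, from 506042 to 552176 (46.1 kb, 8 clusters), lay inside clusters over 67.1% of its span in replicate 1 and 89.1% in replicate 2, and was set off by gaps of 79.8 and 27.9 kb. The fourth, from 19522028 to 19563250 (41.2 kb, 8 clusters), had neighbours within 2.92 and 5.15 kb, and was covered at 50.2% and 82.6%. The other 6 of the 10 longest spanned 34.8 to 38.8 kb, with coverage from 35.9% to 81.0% in replicate 1 and from 53.2% to 95.8% in replicate 2.

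**Figure D3:**
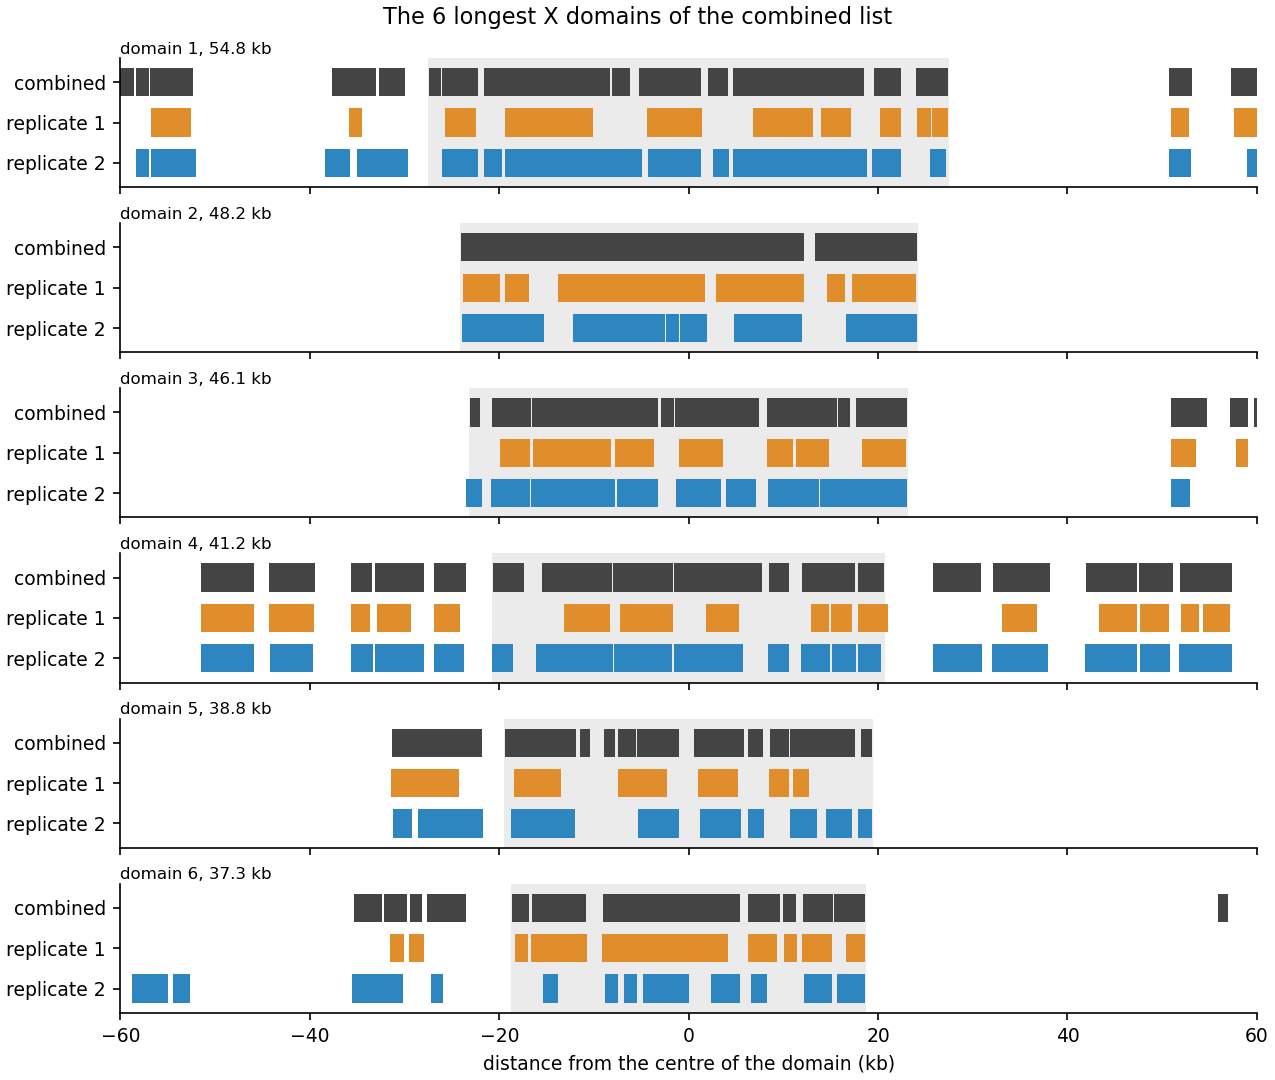
Clusters of the 3 deposited lists (bars) around the 6 longest X domains of the combined list, drawn to scale as distance from the centre of each domain (x axis, kb); grey shading marks the span of the domain. The second domain, 48.2 kb long, has no other combined cluster within the window, and replicate lists split the domains at different places.

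Both replicates covered most of the X domains, with replicate 2 the higher in most. Of the 63 domains, 47 were covered over at least 50% of their span in both replicate lists, 47 in replicate 1 and 60 in replicate 2. The median coverage was 63.5% in replicate 1 (lowest 11.1%, highest 82.9%) and 78.1% in replicate 2 (lowest 37.0%, highest 99.1%). Replicate 2 covered 52 of the 63 more fully. The domain with the lowest coverage in both replicates ran from 18143318 to 18177038 (33.7 kb) and was made of 13 clusters, none wider than 3.09 kb. On the 3 arms 21 of 25, 21 of 33 and 28 of 42 domains passed the same limit in both replicates. All 8 X domains of replicate 1 and 30 of the 35 of replicate 2 met a combined domain.

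Coverage along the X changed over short distances. Over 204 complete 100 kb bins the median coverage was 22.5% in the combined list, with quartiles of 10.1% and 36.9% and a maximum of 76.1%. The arms had medians of 18.2% (2L), 19.7% (3R) and 20.9% (3L), and maxima of 62.7% to 67.3%. Bins covered at 40% or more numbered 41 on the X (20.1%), against 13.5% over all sequences that hold a cluster and 11.9% to 15.1% on the arms. In replicate 1 the X had 5 such bins (2.45%, against 2.51% over all sequences), a share near that background. In replicate 2 it had 23 (11.3%, against 6.25%). Neighbouring 100 kb bins of the X had a Pearson r of 0.25 in coverage and bins 200 kb apart had 0.07, as a description over bins of 1 chromosome. The arms had 0.16 to 0.27 and 0.05 to 0.10, so the X lay within their range. At 10 kb the r between neighbours was 0.57 on the X and 0.45 to 0.52 on the arms, and by 60 kb it was 0.05 on the X and 0.10 to 0.11 on the arms. Replicate 1 gave 0.46 and 0.02 on the X, and 0.35 to 0.43 and 0.04 to 0.10 on the arms. In replicate 2 these values were 0.57 and 0.04 on the X, and 0.42 to 0.51 and 0.08 to 0.12 on the arms. At 100 kb all values were small, and the X was too close to the nearest arm to read an order. They were 0.083 against 0.0076 to 0.067 in the combined list, 0.047 against at most 0.039 in replicate 1 and 0.087 against at most 0.074 in replicate 2.

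The most covered 100 kb bin of the X was the one that starts at 19500001, at 76.1% (47.8% in replicate 1 and 73.2% in replicate 2). The next, starting at 1900001, was covered at 72.2% (39.1% and 68.6%), and together with the bins that start at 2000001 (60.6%) and 2100001 (63.3%) it made a stretch of 300 kb covered above 60% throughout in the combined list. Replicate 2 covered the 3 bins at 68.6%, 55.2% and 61.5%. Replicate 1 covered them at 39.1%, 30.4% and 47.1%. The bin that starts at 15600001 was covered at 64.2% (44.4% and 63.6%) and held 14 clusters but met no domain of the combined list, in which no run of joined clusters there reached 20 kb. In replicate 2 a domain of 30.4 kb, from 15613202 to 15643553, lay in it. The 10 most covered bins ranged from 55.9% to 76.1%. Of these 10, 6 were among the 10 most covered of replicate 1 and 8 among those of replicate 2.

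**Figure D4:**
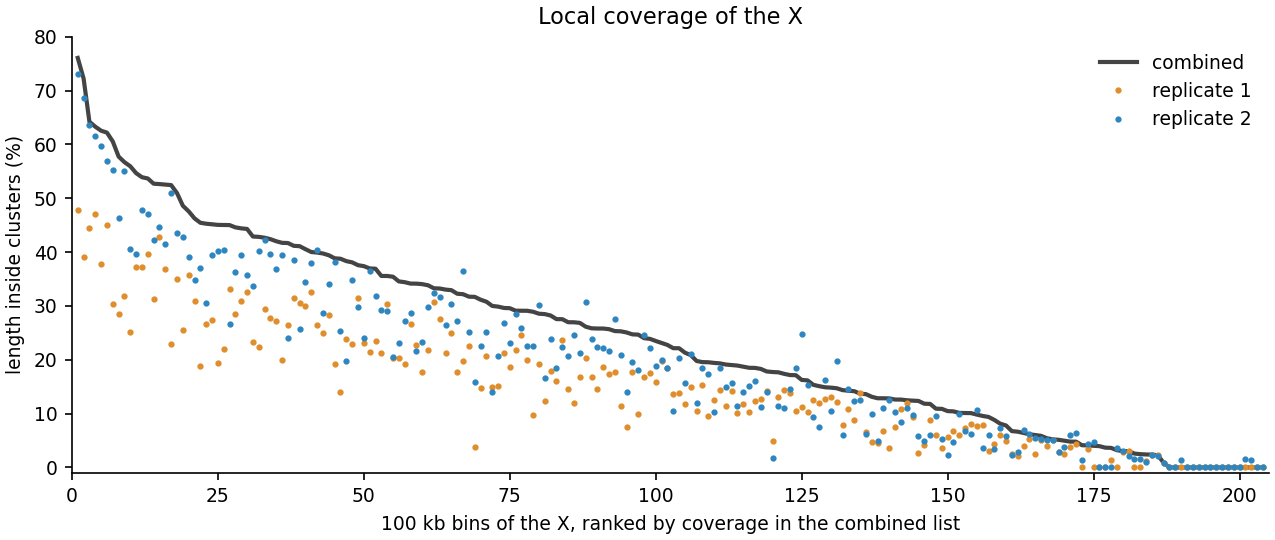
Percent of each 100 kb bin inside clusters (y axis) for the 204 bins of the X, ranked by the combined list (line), with the values of replicates 1 and 2 as points. The combined list falls from 76.1% to 0%, the replicate points follow it at lower values in most bins, and replicate 2 lies above replicate 1 in 149 bins.

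Dense and empty stretches lay side by side on the X. The bin that starts at 6100001 was covered at 62.5% and the one before it held no cluster in any list, the largest step between neighbouring bins of the X. The bin that starts at 6300001 was also empty in all 3 lists, so the 200 kb between them, covered at 62.5% and 30.8%, had empty bins on both sides. From 1600001 to 1800000 coverage went from 6.02% to 62.2%. No cluster was listed in 17 of the 204 bins (8.33%, against 6.61% over all sequences) of the combined list. Replicate 1 had 24 such bins (11.8%, against 17% over all sequences) and replicate 2 had 17 (8.33%, against 10.3%). Of the 17, 14 were empty in both replicates as well. A bin without a cluster can hold the mark below the authors' threshold or sequence where reads cannot be placed.

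The longest gap of the X ran from 14161091 to 14473735 (312.6 kb). Replicate 1 had no cluster in it and replicate 2 had 1, of 1.55 kb. A single cluster of 5.22 kb separates it from another gap of 208.0 kb, from 14478951 to 14686983, again with no cluster in replicate 1 and 1 in replicate 2. Gaps from 4981355 to 5201425 (220.1 kb) and from 19799493 to 20015835 (216.3 kb) held no cluster in either replicate. On the arms the longest gap was 257.0 kb (3L), 333.9 kb (3R) and 478.2 kb (2L), so the X gap is within their range.

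Replicate support for single X clusters was close to that over all sequences. The share on the X was below that of each of the 3 arms, but only the 3R interval lay clear of the X. Of the 1547 combined X clusters, 763 met a cluster of both replicates by at least 1 bp (49.3%, 95% Wilson interval 46.8 to 51.8), against 48.8% of all combined clusters. The arms had 52.9% (2L, interval 50.3 to 55.5), 50.0% (3L, 47.7 to 52.3) and 57.1% (3R, 54.8 to 59.3). Those 763 clusters held 74.1% of the covered length of the X. A further 299 met replicate 2 alone, which is 19.3% (interval 17.4 to 21.4) against 13.0% to 14.9% on the arms. Replicate 1 alone met 107 (6.92%, against 6.68% to 10.7% on the arms). Neither met 378 (24.4%, against 21.3% to 25.4%), so both shares were within the range of the arms. Clusters met by both were 3881 bp wide at the median, with a median score of 0.88, and for clusters met by neither these medians were 1216 bp and 0.39. The intervals cover counting of clusters only.

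Support depended on width more than on the arm. Among X clusters under 1.5 kb, 1 of 433 met both replicates, and each of the 3 arms also had 1. Between 1.5 and 2.5 kb, 36.1% did on the X and 43.3% to 47.4% on the arms. Between 2.5 and 5 kb the shares were 83.7% and 84.8% to 87.2%. From 5 to 10 kb they were 99.0% on the X and 95.3% to 99.1% on the arms, and all 53 X clusters of at least 10 kb met both. Among the clusters met by both replicates, gaps of at most 2 kb made up 33.5% on the X (255 of 762). The arms had 26.5% to 27.8%. In this set the X had 33 domains (1.62 per Mb) against 14 to 17 (0.62 to 0.71 per Mb). The filter selects on width, and clusters that passed it were wider on the X (median 3881 bp against 3199 to 3337 bp). These values are therefore no separate support for closer packing or more domains.

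X clusters in domains were better supported than isolated X clusters. On the X, 339 clusters (21.9%) lay in domains, and 61.1% of them met both replicates (interval 55.8 to 66.1). Isolated clusters, with more than 10 kb to the neighbours on both sides, numbered 82 (5.30%), and 35.4% met both (interval 25.9 to 46.2). Their median widths were 3261 and 1700 bp, so width moves with this difference, and its part in it was not tested. Over all combined clusters 48.8% met both. The arms had 6.33% to 7.07% of their clusters isolated and 8.39% to 12.7% in domains. In domains 75.2% met both on 2L, 58.3% on 3L and 63.1% on 3R, and among isolated clusters 38.2%, 47.4% and 56.8%. The intervals of these classes overlapped on 3L (50.8 to 65.5 and 38.4 to 56.5) and on 3R (56.8 to 69.0 and 47.8 to 65.4).

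The 2 replicates differed more in covered length on the X than on the 3 arms. Replicate 1 covered 15.1% of the X and replicate 2 covered 19.8%, a ratio of 1.31 and a mean of 17.5% ± 3.31 (SD, n = 2). The ratio was 1.10 on 2L, 1.08 on 3L and 1.15 on 3R. The X exceeded the 3 arms together in coverage by a factor of 1.04 in replicate 1 and 1.22 in replicate 2, and in replicate 1 it was just below 3L (15.1% against 15.3%). Replicate 2 had more X clusters, by a factor of 1.21. Their mean width was 1.08 times that of replicate 1, while their median width was lower, at 0.94 times. Coverage was higher in replicate 2 in 149 of 204 X bins of 100 kb, lower in 39 and equal in 16, with a median difference of 3.04 percentage points. The corresponding medians were 0.53 (2L), 0.28 (3L) and 1.79 (3R). Across bins of the X Pearson's r between the replicates was 0.93 and Spearman's rho 0.95, a description over neighbouring bins of 1 chromosome. By this measure the X lay within the range of the arms, from 3L (0.92 and 0.93) to 3R (0.96 and 0.96).

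The extra coverage of replicate 2 lay both beside and away from replicate 1 clusters. Sequence inside replicate 2 clusters alone and within 2 kb of a replicate 1 cluster made up 3.69% of the X, against 2.09% to 2.59% of the arms. Sequence of replicate 2 alone and farther away made up 3.24% of the X, against 1.69% to 2.07%. Replicate 1 clusters alone covered 1.53% of the X near and 0.72% away from replicate 2 clusters, within the range of the arms (1.33% to 1.70% and 0.69% to 1.37%). In base pairs the overlap of the replicates was 58.4% of their union on the X and 62.4% to 66.5% on the arms. Seen from each list, 85.2% of the covered length of replicate 1 and 65.1% of that of replicate 2 was shared on the X.

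**Figure D5:**
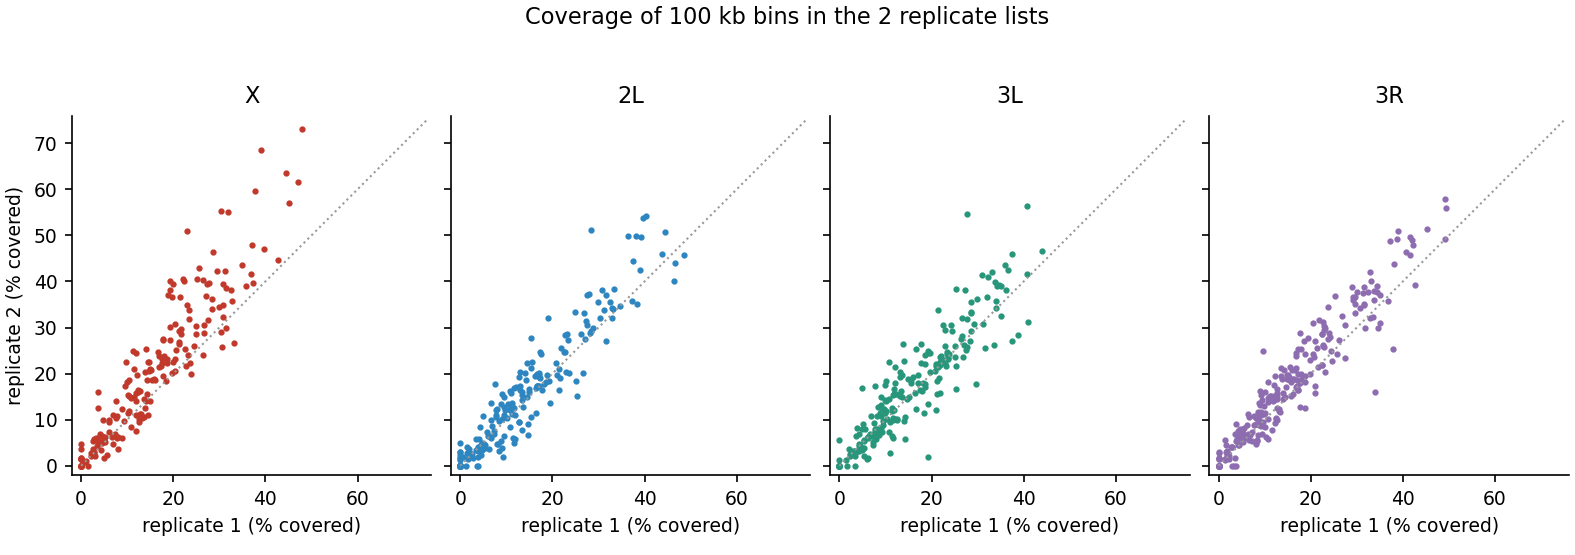
Percent of each 100 kb bin inside clusters in replicate 1 (x axis) and replicate 2 (y axis) for the X, 2L, 3L and 3R; each point is 1 bin and the dotted line marks equal coverage. On the X 149 of 204 points lie above the line, and the highest reaches 73.2% in replicate 2 at 47.8% in replicate 1.

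The scores, which are the authors' own value for each cluster and were used within a list only, were higher on the X across most of their range. The exception was the 95th percentile of the combined list, where the X was not above 3R. In the combined list the 5th percentile was 0.29 on the X and 0.23 to 0.24 on the arms, and the median was 0.46 against 0.39 to 0.42. At the 95th percentile the X had 1.45, the same as 3R to that precision and above 2L and 3L (both 1.40). In replicate 1 the X exceeded the highest of the 3 arms by 0.09 at the 5th percentile, 0.15 at the median and 0.18 at the 95th. In replicate 2 these differences were 0.06, 0.11 and 0.04. Lists therefore differed in where the X stood apart most. Within a width class the median score of the X was above every arm in all 5 classes of the combined list and of replicate 1. For combined clusters under 1.5 kb it was 0.40 on the X and 0.32 to 0.33 on the arms, and from 5 to 10 kb it was 1.01 against 0.81 to 0.98. This did not hold in each class of replicate 2, where the X had 0.97 from 2.5 to 5 kb, below 2L (1.00) and 3R (0.99), and 1.20 from 5 to 10 kb, below 3R (1.21).

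The highest-scoring X clusters met by both replicates were narrow next to the widest ones. Behind the highest, with 2.24, X from 15031474 to 15034314 (2.84 kb) scored 2.23, with 2.16 in replicate 1 and 2.32 in replicate 2. X from 16211400 to 16215218 (3.82 kb) scored 2.02, with 2.24 and 1.87. X from 15638602 to 15643660 (5.06 kb) scored 1.99 and lies in the densely covered bin that starts at 15600001. The 10 highest of this kind scored 1.87 to 2.24 and measured 2.40 to 8.71 kb, and none is among the 10 widest, which scored 0.53 to 1.65. On the X as a whole width and score had a Spearman rho of 0.68 across clusters, against 0.65 to 0.69 on the arms, as a description. A pair of clusters of 1001 bp scored above all of these, from 13834322 to 13835322 (3.17) and from 3887532 to 3888532 (2.55), and neither met a cluster in either replicate. Their exact scores recur in 8 and 9 other combined clusters.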

How the data were processed

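The 3 deposited lists of enriched regions hold a start, an end and a score for each region. Per the submitters' processing notes, the aligner was Bowtie 0.12.7, and the file headers give FlyBase release 5 as the build of all positions. For the cluster caller, its threshold, its use of the inputs, the formula of the score and the making of the combined list, the methods are not given in sources used here, so the deposited score serves only to describe and rank clusters within 1 list. The authors called the replicate lists per sample. Regions typed as depleted were left out, and none of them lies on the X. Arm lengths came from the file headers. Gaps, domains, overlaps of at least 1 bp and coverage of complete bins of 100 kb and 10 kb were computed with Python 3.11.15, numpy 2.4.6, pandas 2.3.3 and scipy 1.17.1, were tested on simulated data, and figures used matplotlib 3.10.9. The share over all sequences covers the 13 arms and scaffolds that hold clusters. Regions named in the text are from the 10 highest-scoring and 10 widest X clusters met by both replicates, the 10 longest domains, the 10 most covered and the empty bins, the 5 longest gaps and the clusters beside the limit. The exceptions, chosen after their values were seen, are the domain with the lowest replicate coverage, the bins beside named bins, the steps between bins and the pair of narrow high-scoring clusters. The X, its limit and the lists of measures were chosen with earlier results of these data known.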

Additional observations from a re-analysis of the deposited data

How the results depend on the processing

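No paired analysis was possible because no input lists were used here and the ChIP samples form 1 group. The settings with other domain spans, clusters met by both replicates and the higher-scoring 50% of each replicate list were chosen after the data were seen. Among the 11 results recomputed under the alternatives run, only the ratios to the arms and the score difference could change direction. The others are lengths, counts or shares above 0, or the ratio between replicates, for which direction was not judged. The ratios to the arms stayed above 1 in each setting, while the X minus autosome median score changed direction, from 0.06 to -0.029. That was among combined clusters in the higher-scoring 50%, a setting that selects on the score it compares. Over clusters that both replicates met the difference was 0.12, and the replicate lists gave 0.11 to 0.19. Being met by both also goes with score, at a median of 0.88 on the X against 0.39 for clusters met by neither. With the higher-scoring 50%, X coverage was 17.8%, the coverage ratio to the arms 1.33, the median gap 5380 bp, the median width 3663 bp, the domain count 32, the share of covered length in domains 21.4%, the domain density ratio 3.51 and the share met by both 83.2%. The ratios to the arms in this setting carry the same selection, since 1 cut served all sequences and X scores were higher. Either replicate list in place of the combined list gave X coverage of 15.1% to 19.8% and a coverage ratio of 1.04 to 1.22. The median gap was then 3086 to 4671.5 bp and the median width 2490.5 to 2653 bp. The domain count was 8 (replicate 1) to 35, and the share in domains 5.47% to 20.8%. The density ratio was 2.09 to 2.43 and the mean of the 10 most covered bins 41.8% to 59.3%. These are values per replicate, not of a combined list made again without 1 replicate. Joining over 1 kb or 5 kb gave 33 or 114 domains, 16.9% or 64.0% of covered length and density ratios of 3.03 or 1.28. A smallest span of 10 or 30 kb gave 176 or 23 domains and ratios of 1.34 or 3.56, so the excess on the X was smaller for short runs. Clusters met by both, a filter that selects on width, gave a median gap of 5287 bp, 33 domains and a ratio of 2.44. The density ratio was 2.59 against 2L alone and 1.90 against 3R alone. The 20 most covered bins of 50 kb averaged 75.5%. The share met by both was 39.5% at a reciprocal overlap of 50% and 61.8% once clusters narrower than the shortest of the replicate lists were left out. The replicate 2 to 1 ratio on the X was 1.21 in clusters per Mb, 1.08 in mean width, 1.31 on the whole X and 1.37 in the higher-scoring 50%. The cause of these shifts was not tested. Depth is unknown, so a region listed in 1 replicate may lie under the threshold of the other.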
